A study of Mus musculus with 7 samples.

Results

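The members described here are the ligands and receptors of axon guidance: the 70 genes whose symbols begin with Sema, Plxn, Epha, Ephb, Efna, Efnb, Robo, Unc5, or Slit with a digit, together with Nrp1, Nrp2, Dcc, Ntn1, Ntn4, Ntng1 and Ntng2, and that had at least 20 unique molecular identifiers (UMIs, each standing for 1 captured transcript) over all cells. They were 70 of 72 genes with such names and of 19614 genes in all. Just inside the minimum lay Ntng2 with 28 UMIs, and just outside it Unc5cl with 17 and Epha1 with 11 UMIs. The members held 327335 of 154079861 UMIs. By family they were 8 EphA and 5 EphB receptors, 5 ephrin-A and 3 ephrin-B ligands, 7 class 3 semaphorins, 13 other semaphorins, 11 plexins and neuropilins, 5 netrin receptors, 2 netrins, 2 netrin-G proteins, 3 slits and 4 Robo receptors. The other 2 match by name only: Unc50 is no netrin receptor, and Plxna4os1 is an antisense transcript of the Plxna4 locus, whose reads cannot be told apart from those of Plxna4 where strand was not counted.

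Single cells were taken at postnatal day 30 from B6129SF1/J mice housed with 12 h each of light and dark, and were sequenced from the 3' ends of transcripts in droplets. Cells labelled motor cortex (MC) gave 1 DTA and 1 CTRL library, and ventromedial prefrontal cortex (PFC) gave 3 DTA and 2 CTRL libraries. DTA mice are Opn4-Cre/+; Brn3b-zDTA/+, a genotype in which diphtheria toxin subunit A is directed, through Cre from the melanopsin gene, at retinal ganglion cells that contain melanopsin and Brn3b. CTRL mice are Opn4-Cre/+; Brn3b-+/+, so both genotypes carry the Cre allele and differ in the toxin allele. The targeted cells lie in the retina, so no cortical transcript checks the ablation; neither Opn4 nor Pou4f2 was analysed here. The labels describe a brain for each sample and say no more of how the libraries relate, so p-values measure the spread between these libraries. The protocol text names the excision of the PFC only, also for the libraries labelled MC.

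Axon guidance molecules steer growing axons by attraction or repulsion, and many stay on in the mature brain, where they act on synapses, myelin and vessels. Semaphorins signal through plexins, the secreted class 3 semaphorins mostly with neuropilins as co-receptors. Slits bind Robo receptors, netrins bind Dcc and the Unc5 receptors, netrin-G proteins sit on the axon surface and bind partners on dendrites, and ephrins and Eph receptors meet where cells touch and can signal into both cells. In the cortex, graded and layer-specific levels of these molecules help to set up areas, layers and thalamic input.

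The upstream sequences of 3 members are shown because their transcripts differed between the areas in neurons: Sema3c and Sema3e, ligands whose difference ran in opposite directions in different neurons, and Nrp2, a co-receptor that was lower in the MC. Each is the 250 bases before the gene start in RefSeq on GRCm38.p6, 5′ to 3′ on the strand of the gene. Capitals mark GGGCGG and its reverse complement CCGCCC, the letters of the GC box; 2 of the matches in Nrp2 share a base.
Sema3c, chr5:17574566-17574815 (+): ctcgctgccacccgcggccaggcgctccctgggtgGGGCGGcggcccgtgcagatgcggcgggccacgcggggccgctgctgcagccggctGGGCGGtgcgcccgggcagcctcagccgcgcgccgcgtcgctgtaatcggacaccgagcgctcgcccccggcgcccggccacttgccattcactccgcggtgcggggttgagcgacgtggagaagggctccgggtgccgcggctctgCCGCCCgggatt
Sema3e, chr5:14025026-14025275 (+): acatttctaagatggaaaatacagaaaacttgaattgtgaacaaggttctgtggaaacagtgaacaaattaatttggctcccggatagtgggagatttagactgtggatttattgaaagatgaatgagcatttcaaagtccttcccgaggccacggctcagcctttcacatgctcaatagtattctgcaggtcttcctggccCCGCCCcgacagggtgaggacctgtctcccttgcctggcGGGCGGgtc
Nrp2, chr1:62703067-62703316 (+): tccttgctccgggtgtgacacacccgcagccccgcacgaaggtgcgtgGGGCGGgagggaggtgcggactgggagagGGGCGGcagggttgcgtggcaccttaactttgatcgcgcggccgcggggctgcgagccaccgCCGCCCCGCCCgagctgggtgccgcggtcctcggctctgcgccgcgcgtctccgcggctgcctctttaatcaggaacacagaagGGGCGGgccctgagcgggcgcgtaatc
Of the 70 members, 59 had an entry in the RefSeq promoter table, and 43 of these (72.9%) held GGGCGG or its reverse complement within the 250 bases. Of all 27025 promoters in the table, 8901 (32.9%) held it. A match describes the letters of the sequence and is not a binding site.

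The 7 libraries held 1936 to 9879 cells and 6180059 to 30972905 UMIs each, 32985 cells in all, of which 31921 stayed after doublet calls were removed. Clusters were formed without the member genes and named from markers, so that each name stands for cells like that type. In the main classes, excitatory neurons numbered 739 to 4404 per library, inhibitory neurons 118 to 1160, astrocytes 269 to 1181 and endothelial cells 139 to 404. The number of UMIs per cell differed between libraries: the median in excitatory neurons was 15840 in MC DTA, 12380 in PFC DTA replicate 2 and 11440 in PFC CTRL replicate 1, and 2984 to 5408 in the other 4. Unnamed cells numbered 2763, and 1863 of them came from PFC DTA replicate 3. No pair of libraries shared more than 92 cell barcodes. Levels below are counts per 1000000 (CPM) of the UMIs summed over the cells of a class in a library. They are compared between classes and libraries, not between genes. The 8 markers of excitatory neurons had 4.13% to 14.99% of their own level in the other main classes as a mean over libraries, and 1.07% to 27.45% in single libraries. A level of an excitatory member within such a share may be background, which was not tested. Fewer cells of a type and less RNA per cell cannot be told apart in a summed count where a class mixes several types.

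The members had their highest levels in different main cell classes. Of the 70, 19 had their highest mean level in excitatory neurons, 13 in inhibitory neurons, 10 in endothelial cells, 10 in oligodendrocytes, 9 in oligodendrocyte precursors, 5 in astrocytes and 4 in microglia. For 7, 3, 7, 7, 2, 2 and 2 of them, in the same order, every library lay above every library of the second class. These levels are descriptions without a test. At 20 CPM or more stood 32 members in excitatory neurons and 31 in inhibitory neurons, against 20 in endothelial cells, 20 in precursors, 17 in oligodendrocytes, 13 in astrocytes and 10 in microglia.

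**Figure D1:**
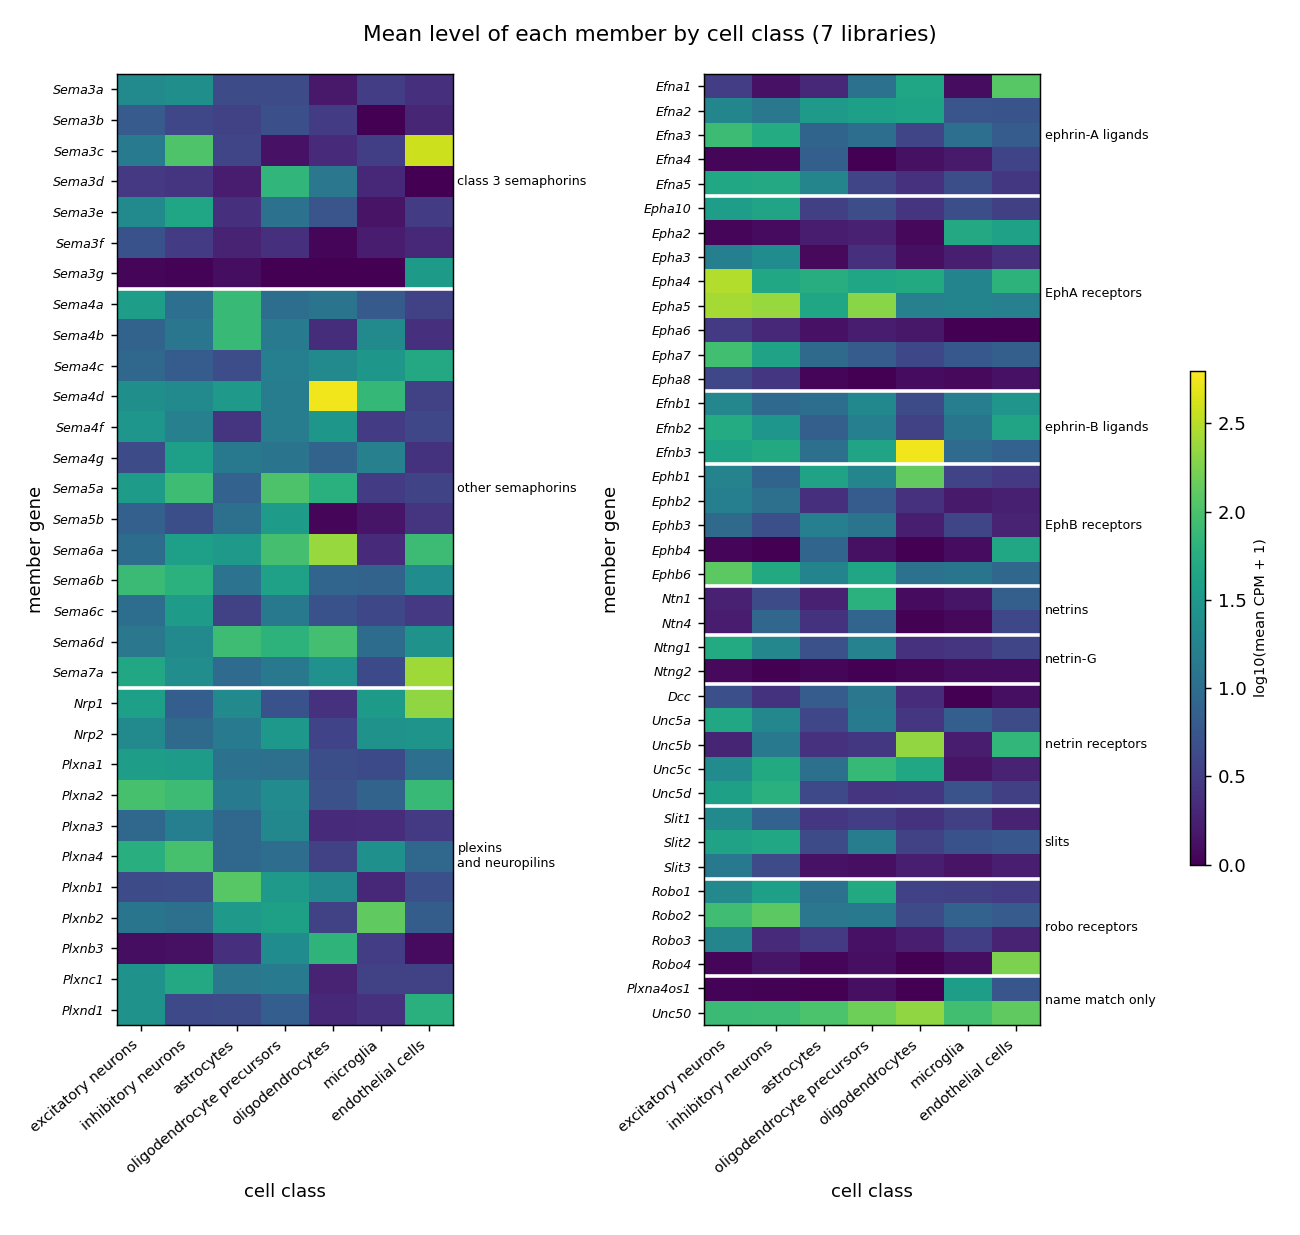
Mean level of each of the 70 members (rows, by family) in 7 cell classes (columns), as log10 of the mean CPM over 7 libraries plus 1. Efnb3 and Sema4d in oligodendrocytes, at 542 CPM each, stand out, and Robo4, at 175 CPM in endothelial cells, is near 0 in the other main classes.

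Oligodendrocytes, which wrap axons in myelin, were marked by ligands and by receptors of several families. Efnb3, a transmembrane ephrin ligand, stood at 542 ± 40.4 CPM (SD, n = 7), and inhibitory neurons came second at 48.8 ± 15.4 CPM. Sema4d, a membrane semaphorin that binds B plexins, stood at 542 ± 118 CPM, against 71.6 ± 16.9 CPM in microglia. Unc5b, a netrin receptor, reached 222 ± 36.5 CPM, Sema6a 234 ± 49.8 CPM and the EphB receptor Ephb1 131 ± 25.7 CPM. Plxnb3, a plexin for class 5 semaphorins, stood at 65.0 ± 13.4 CPM, and its range of 52.7 to 90.5 CPM lay above that of the precursors, 6.92 to 36.3 CPM. The precursors themselves led for Ntn1, the netrin ligand, with 59.8 ± 14.9 CPM, against at most 18.4 CPM in any library of endothelial cells, the second class. They also led for Sema3d at 68.4 ± 19.5 CPM, Sema5b at 33.5 ± 10.6 CPM and Robo1 at 49.8 ± 22.1 CPM; for Sema5b and Robo1 the libraries overlapped those of the second class. Dcc, the attractive netrin receptor, was highest there too, at only 11.9 ± 5.30 CPM.

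Endothelial cells, the lining of vessels, carried a vascular set. Robo4, the Robo of vessels, stood at 175 ± 33.4 CPM, and its level in the other main classes was at most 2.15 CPM in any library. Sema3g stood at 32.6 ± 11.4 CPM and Ephb4, the receptor known from veins, at 46.7 ± 7.86 CPM. Sema3c, a secreted semaphorin, stood at 387 ± 27.7 CPM, against 105 ± 54.9 CPM in inhibitory neurons. Sema7a, a GPI-anchored semaphorin, had 251 ± 51.2 CPM, the neuropilin Nrp1 217.5 ± 35.4 CPM and the ephrin Efna1 116 ± 35.6 CPM. All 7 libraries of endothelial cells lay above those of the second class for these 7 members. Plxnd1, the plexin of vessels, was also highest there, at 58.5 ± 14.7 CPM, but overlapped excitatory neurons.

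Astrocytes, the glia that take up transmitter, were marked by Plxnb1, a receptor for Sema4d, at 118 ± 33.7 CPM, and by Sema4a and Sema4b at 76.1 ± 7.18 and 76.1 ± 17.03 CPM. Sema6d stood at 84.0 ± 17.6 CPM and did not stand apart from oligodendrocytes at 92.0 ± 11.9 CPM. Microglia, the resident immune cells, were marked by Plxnb2 at 128 ± 24.3 CPM and the antisense transcript Plxna4os1 at 36.5 ± 5.71 CPM. Epha2, at 48.3 ± 19.99 CPM in microglia, overlapped endothelial cells at 39.4 ± 19.8 CPM and was higher than there in 5 of 7 libraries. Sema4c, at 29.6 ± 11.46 CPM in microglia, was higher in endothelial cells at 47.6 ± 15.5 CPM. The ligand Sema4d and its plexins Plxnb1 and Plxnb2 thus had their highest levels in 3 different glial classes.

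Neuron classes held the highest level of 9 of the 13 Eph receptors. Epha4, a receptor for both ephrin classes, stood at 303 ± 55.6 CPM in excitatory neurons and at no more than 78.5 CPM in any library of the second class, endothelial cells. Epha7 stood at 88.9 ± 12.4 CPM, Ephb6 at 123 ± 13.6 CPM, the netrin-G protein Ntng1 at 50.2 ± 12.5 CPM and Slit1 at 20.7 ± 4.71 CPM, each apart from inhibitory neurons in all libraries. Epha5, at 266 ± 61.4 CPM in excitatory and 232 ± 34.04 CPM in inhibitory neurons, did not separate them. Inhibitory neurons led for Unc5d at 58.7 ± 18.4 CPM, Epha3 at 21.8 ± 5.21 CPM, Sema3e at 43.6 ± 15.2 CPM and Sema6c at 33.9 ± 7.31 CPM, and only Sema6c of these stood apart from the second class. The receptor Robo2, with 123 ± 23.4 CPM in inhibitory and 85.4 ± 24.4 CPM in excitatory neurons, and its ligand Slit2, with 46.7 ± 15.7 CPM in inhibitory and 40.4 ± 5.03 CPM in excitatory neurons, overlapped likewise. Robo2 was higher in inhibitory neurons in 7 of 7 libraries, and Slit2 in 4 of 7.

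Within neurons, members had their highest levels in different subclasses, mostly with overlap. Of those named here for inhibitory subclasses, only Unc5c in Lamp5 and Slit2 in Pvalb cells had every library above those of the next subclass. Among inhibitory subclasses, Lamp5 cells had 308 ± 77.5 CPM of Sema5a, 161 ± 60.3 CPM of Unc5c, 114 ± 47.2 CPM of Unc5d and 56.6 ± 11.7 CPM of Epha3. Sncg cells had 519 ± 280 CPM of Sema3c and 71.1 ± 67.5 CPM of Unc5b, from 4 to 68 cells per library. Pvalb cells, the fast-spiking basket and chandelier cells, were high in Slit2 at 110.1 ± 17.9 CPM, Plxna4 at 181.5 ± 34.3 CPM, Sema4g at 54.5 ± 5.77 CPM and Plxnc1 at 61.9 ± 8.42 CPM, while Slit2 in Lamp5 and Vip cells averaged 1.56 and 1.06 CPM. Sst cells led for the repellent Sema3a at 58.0 ± 21.5 CPM, and Vip cells for Sema6a at 70.2 ± 23.5 CPM, beside a mean of 68.2 CPM in Lamp5 cells.

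Excitatory subclasses differed along the layers, mostly with overlap. Of the members named here, only Epha4 in layer 4/5, Slit1 in layer 5 and Ephb6 in layer 6 stood apart from the next subclass in all libraries. Layer 4/5 intratelencephalic (IT) cells, which project within the cortex, had the highest Epha4 at 518 ± 56.0 CPM and the highest Plxnd1 at 56.9 ± 10.4 CPM, and layer 2/3 IT cells followed for both with 344.5 ± 47.0 and 28.6 ± 18.6 CPM. Layer 5 extratelencephalic (ET) cells, which project below the cortex, led for Ntng1 at 144 ± 49.3 CPM and Ephb1 at 37.3 ± 8.92 CPM. Layer 5 near-projecting (NP) cells led for Slit1 at 73.4 ± 12.6 CPM, Efnb3 at 139.8 ± 49.7 CPM and Sema5b at 35.1 ± 23.6 CPM. The neuropilin Nrp1 stood at 109 ± 51.0 CPM in layer 5 NP cells and 104 ± 13.6 CPM in layer 6 corticothalamic (CT) cells, and averaged between 1.07 and 42.9 CPM in the other 9 subclasses. Layer 6 CT cells also had 207 ± 37.4 CPM of Ephb6 and 59.4 ± 9.69 CPM of Sema4a. Layer 6 IT cells led for Robo3 at 25.9 ± 21.5 CPM and Unc5a at 70.2 ± 7.43 CPM. The wide spread of Robo3 lies between the areas, as given below.

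The first test compares DTA with CTRL mice in the PFC, that is, cortex of mice with and without the toxin allele. No member passed the threshold in any class or neuron subclass. With edgeR's quasi-likelihood test and Benjamini-Hochberg adjustment over all genes of a class, 0 of 221 tests of members in 7 classes had an adjusted p under 0.05, where the background was 0% of 63872 tests of all genes. In 9 neuron subclasses 0 of 320 passed, where the background was 0.00272% of 73619. DESeq2 also called 0 at both levels. With 1 library left out, 1 member passed in classes, Sema5a in oligodendrocytes without PFC CTRL replicate 2, where the background was 0.992% of 7862 genes. In subclasses 1 passed as well, Epha7 in layer 4/5 IT cells without PFC DTA replicate 2, with a background of 0.666% of 9454. At an unadjusted p under 0.05 stood 10 of the 221 (4.53%), against 2.66% of all genes, and 22 of the 320 (6.88%), against 3.48%. In excitatory neurons the log2 fold changes (DTA over CTRL) of the 61 tested members had a median of 0.02, against 0.00 over all genes, and for 51 of the 61 the value with 2 SE on either side stayed within -1 and 1. In inhibitory neurons the median was -0.12, against -0.00 over all genes, and 35 of 50 stayed within those bounds. The 21 members tested in endothelial cells had a median of -0.07, with 12 of 21 inside the bounds, and the 36 in astrocytes a median of 0.08, with 10 of 36.

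The smallest p-values in classes belonged to members in neurons, 2 of them netrin-related, and none passed the adjustment. Unc5c, a netrin receptor, had 38.4, 35.3 and 31.7 CPM in the inhibitory neurons of the DTA libraries, against 57.3 and 62.7 CPM in those of CTRL. The groups did not overlap, and the log2 fold change was -0.77 ± 0.21 (SE; edgeR, unadjusted p = 0.0014, adjusted p = 0.971). In Lamp5 cells, where Unc5c was highest, it had 80.6, 119.9 and 116 CPM in DTA and 220.6 and 242 CPM in CTRL libraries, with a log2 fold change of -1.03 ± 0.28 (unadjusted p = 0.00078, adjusted p = 0.572). The first value comes from 24 Lamp5 cells with 62022 UMIs of all genes. Cluster 2 held 37.5%, 46.7% and 65.8% of Lamp5 cells in DTA replicates 1 to 3, and 85.7% and 66.7% in CTRL replicates 1 and 2. The part of this mix in the Unc5c value was not tested. Slit2 in inhibitory neurons had 32.5, 41.3 and 36.9 CPM in DTA and 78.9 and 53.6 CPM in CTRL libraries (log2 fold change -0.73 ± 0.23, adjusted p = 1.0). On the other side, Ntng1 in excitatory neurons had 53.3, 74.9 and 55.5 CPM in DTA and 43.4 and 44.6 CPM in CTRL libraries (log2 fold change 0.53 ± 0.18, unadjusted p = 0.011, adjusted p = 1.0). In layer 2/3 IT cells Ntng1 had 27.5, 22.6 and 18.6 CPM in DTA and 11.4 and 10.4 CPM in CTRL libraries, and the log2 fold change was 1.09 ± 0.26.

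The other members named for this comparison had the smallest p-values in their class and likewise missed the threshold. In excitatory neurons the log2 fold change was 0.79 ± 0.33 for Plxnb1, -0.54 ± 0.29 for Sema5a and -0.42 ± 0.20 for Efnb3. Sema5a rested on PFC CTRL replicate 1: its level was 27.6, 29.1 and 26.7 CPM in DTA and 55.7 and 27.1 CPM in CTRL libraries, and without that replicate the log2 fold change was 0.13. Layer 6 CT cells, with a mean of 158.9 CPM of Sema5a, numbered 245 of 760 excitatory neurons in that replicate and 609 of 4404 in CTRL replicate 2. In DTA replicates 1 to 3 they numbered 162 of 1086, 230 of 1670 and 323 of 1710. The part of this layer mix in the Sema5a value was not tested. In inhibitory neurons Ephb3 had 1.39 ± 0.67 and Epha5 0.36 ± 0.20. In astrocytes Sema5a had 1.28 ± 0.71, Nrp2 0.94 ± 0.44, Efna5 -0.51 ± 0.34 and Sema4b -0.43 ± 0.24. The clusters behind astrocytes differed between single libraries of both genotypes. Cluster 4 held 80.1%, 12.15% and 21.8% of astrocytes in DTA replicates 1 to 3, and 8.55% and 84.8% in CTRL replicates 1 and 2. Cluster 7 held 7.96%, 67.0% and 51.7% in DTA, and 81.4% and 7.88% in CTRL. In endothelial cells Robo4 had 140, 165 and 139 CPM in DTA and 226 and 194 CPM in CTRL libraries, a log2 fold change of -0.49 ± 0.23 (adjusted p = 1.0). Sema3g had -0.42 ± 0.44 there, Efna1 0.45 ± 0.30 and Sema6a 0.36 ± 0.25.

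**Figure D2:**
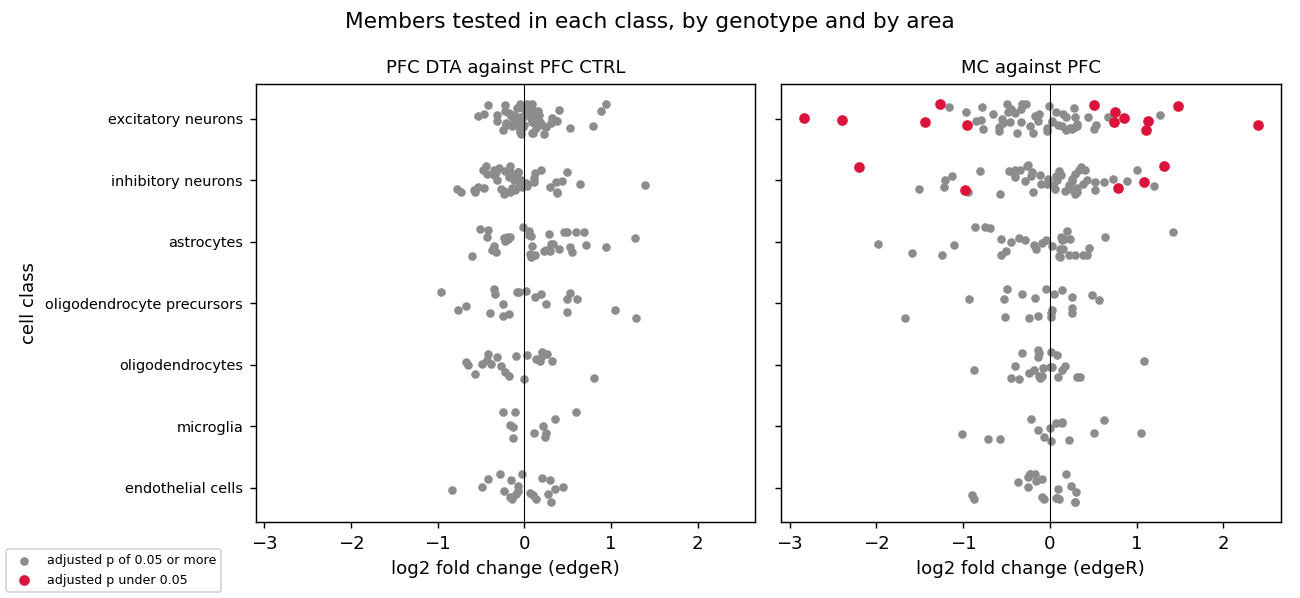
Log2 fold changes of the tested members (x axis) in each main class (rows), DTA over CTRL in the PFC on the left and MC over PFC on the right. Each point is 1 member, and red points have an adjusted p under 0.05 over all genes of the class: none on the left, and 13 in excitatory and 5 in inhibitory neurons on the right.

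In the MC each genotype has 1 library, so the ratio of DTA to CTRL has no replicate check and no test. Over the 50 members with at least 50 UMIs in each library, the median log2 ratio in excitatory neurons was 0.07, with values between -1.05 and 0.73. Over 32 such members in inhibitory neurons it was -0.04, between -0.84 and 0.37. Sema5a had 22.6 CPM in DTA and 48.0 CPM in CTRL excitatory neurons, a log2 ratio of -1.05 (exact Poisson 95% interval -1.26 to -0.85, which covers counting error only). Nrp1 had -0.74 and Efnb3 -0.63, while Plxnd1 had 0.73 and Ephb3 0.71. Layer 6 CT cells, with means of 158.9 CPM of Sema5a and 104 CPM of Nrp1, numbered 96 of 739 excitatory neurons in DTA and 514 of 2626 in CTRL. Layer 4/5 IT cells, with a mean of 56.9 CPM of Plxnd1, numbered 170 of the 739 and 418 of the 2626. The part of the layer mix in these ratios was not tested. Unc5c in inhibitory neurons had 42.1 CPM in DTA and 76.6 CPM in CTRL, a log2 ratio of -0.84 (-1.19 to -0.51), and Sema3c had the same size of ratio at -0.84. Lamp5 cells, the subclass highest in Unc5c, numbered 54 of 244 inhibitory neurons in DTA and 197 of 676 in CTRL. The part of this mix in the ratio was not tested. Slit2 in inhibitory neurons had 44.4 CPM in DTA and 39.4 CPM in CTRL, and Ntng1 in excitatory neurons 41.0 CPM in DTA and 38.9 CPM in CTRL, both with intervals that held 0. Among members with as many UMIs in the other classes, the widest ratios were 1.10 for Sema5a in oligodendrocytes and 0.88 for Plxnb2 in microglia. The MC libraries drew on different clusters of microglia: cluster 17 held 85.02% in DTA and 2.934% in CTRL. The part of this mix in the Plxnb2 ratio was not tested. In endothelial cells Robo4 had 204 CPM in DTA and 159 CPM in CTRL, a log2 ratio of 0.44 (0.09 to 0.80), and Sema7a one of 0.54.

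The second test compares the MC with the PFC over the 7 libraries, and the fit holds a term for genotype. Guidance members differed between the areas in neurons, and none passed the threshold in the 5 glial and vascular classes. In excitatory neurons 13 of 62 tested members passed (21.0%), 8 higher and 5 lower in the MC, where the background was 5.38% of 14170 genes, 3.01% higher and 2.37% lower. In inhibitory neurons 5 of 55 passed (9.09%), 3 higher and 2 lower, with a background of 2.06%, 1.11% higher and 0.952% lower. Over the 7 classes these were 18 of 231 tests, with a background of 1.52%, from 13 of 69 members. The median log2 fold change of the members stayed near 0, at -0.08 in excitatory and 0.08 in inhibitory neurons, against -0.01 and -0.01 over all genes. A gene with counts in the MC alone could enter these tests, since the filter on low counts asks for them in 2 libraries. Each area's neurons also differ in make-up: layer 5 ET cells numbered 9 and 11 in the MC libraries and 29 to 294 in those of the PFC.

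Among receptors of excitatory neurons, Robo3, a Robo that modifies the response to slits, had 42.9 and 40.7 CPM in the MC libraries, against 6.63, 5.87, 18.1, 6.86 and 4.98 CPM in those of the PFC. It was higher in both MC libraries than in any PFC library, with a log2 fold change (MC over PFC) of 2.40 ± 0.43 (SE; edgeR, adjusted p = 0.026). The netrin receptor Unc5d had 67.3 and 72.7 CPM in the MC and 20.4, 31.0, 20.6, 19.7 and 32.1 CPM in the PFC (1.48 ± 0.18, adjusted p = 0.0013). Plxnd1, a plexin that binds Sema3e, rose by 1.14 ± 0.13, Robo2 by 0.75 ± 0.12 and Epha4 by 0.51 ± 0.12, all with groups apart. Nrp2, the co-receptor for Sema3c and Sema3f, was lower, with 10.1 and 11.2 CPM in the MC and 21.2, 29.2, 19.0, 24.5 and 31.8 CPM in the PFC (-1.26 ± 0.19, adjusted p = 0.0033). Inhibitory neurons shared the directions for Nrp2, -2.20 ± 0.44, and Epha4, 0.79 ± 0.16. Epha4 in inhibitory neurons had 57.3 and 74.5 CPM in the MC, beside 391 and 373 CPM in excitatory neurons. The excitatory markers stood in inhibitory neurons at 4.29% to 14.02% of their own level in single libraries. The part of this background in the Epha4 difference was not tested.

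Among ligands of excitatory neurons, Efnb3 showed the smallest p-value: 8.06 and 12.8 CPM in the MC libraries, against 42.4, 59.0, 36.0, 59.0 and 68.0 CPM in those of the PFC. The log2 fold change was -2.40 ± 0.20 (edgeR, adjusted p = 0.00013), and the groups lay far apart. Oligodendrocytes are the class richest in Efnb3, and the summed level of the 8 oligodendrocyte markers in excitatory neurons was 32.0 and 118 CPM in the MC and 64.4, 20.9, 68.0, 33.1 and 69.3 CPM in the PFC. The areas overlapped in these markers, and the part of oligodendrocyte RNA in the difference was not tested. Sema7a had 78.5 and 67.0 CPM in the MC and 37.1, 32.6, 41.6, 36.7 and 24.6 CPM in the PFC (1.11 ± 0.17, adjusted p = 0.0031). Sema3a rose by 0.85 ± 0.15 and Efna5 by 0.74 ± 0.17, while Efnb1 fell by 0.95 ± 0.17 on the log2 scale. Sema3d was lower, at -2.84 ± 0.61, with at most 4.58 CPM in any library. In inhibitory neurons Sema7a again rose, with 42.1 and 39.4 CPM in the MC and 11.8, 17.6, 14.8, 13.5 and 18.7 CPM in the PFC (1.32 ± 0.19, adjusted p = 0.00056), and Efnb3 fell by 0.98 ± 0.18. Sema7a is richest in endothelial cells, whose 8 markers summed to 24.9 and 35.3 CPM in MC and 14.6 to 59.1 CPM in PFC excitatory neurons, with overlap; their part in the difference was not tested.

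Sema3c passed in both neuron classes in opposite directions. In excitatory neurons it had 5.62 and 6.51 CPM in the MC and 12.5, 15.8, 16.6, 16.1 and 19.98 CPM in the PFC, a log2 fold change of -1.44 ± 0.18 (edgeR, adjusted p = 0.00095). In inhibitory neurons it had 121 and 219 CPM in the MC and 91.6, 52.9, 71.2, 80.9 and 95.2 CPM in the PFC, a log2 fold change of 1.08 ± 0.17 (adjusted p = 0.0013). The direct test of the difference, with each library as a block, gave -2.59 ± 0.19 (edgeR, adjusted p = 4.5e-09). It was added after the opposite calls had been seen, so that it passed was nearly fixed in advance. Lamp5 cells, with a mean of 207.5 CPM of Sema3c, numbered 54 of 244 and 197 of 676 inhibitory neurons in the MC. In the PFC they numbered 24 of 118, 45 of 297, 38 of 250, 21 of 153 and 201 of 1160. Sncg cells, with 519 CPM, numbered 16 and 45 in the MC and 4, 22, 26, 10 and 68 in the PFC. The part of this mix in the rise of inhibitory neurons was not tested.

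The neuron subclasses divided these differences further. Over 8 neuron subclasses 48 of 311 tests of members passed (15.4%), 29 higher and 19 lower in the MC, with a background of 3.55% of 70437, 1.93% higher and 1.62% lower. They came from 21 of the 58 members tested there. Layer 2/3 IT cells had 14 of 56 (background 10.5%), layer 4/5 IT cells 6 of 55 (5.06%), layer 5 NP cells 2 of 26 (0.216%), layer 6 CT cells 9 of 53 (2.3%) and layer 6 IT cells 10 of 39 (2.83%). Of the inhibitory subclasses, Sst cells had 4 of 37 (1.24%), Vip cells 2 of 20 (0.157%) and Lamp5 cells 1 of 25 (0.442%).

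Several members kept 1 direction in every subclass where they passed. Robo3 was tested in 4 of the 8 subclasses and was higher in the MC in all 4. Counts in the 2 MC libraries alone could bring it past the filter on low counts. The tested subclasses may thus have been chosen by its MC level, and the shared direction is no separate support. In layer 6 CT cells Robo3 had 35.6 and 27.8 CPM in the MC and 0, 6.65, 4.54, 2.90 and 3.31 CPM in the PFC, and the log2 fold change was 3.005 ± 0.33 (edgeR, adjusted p = 8.8e-06). The others were 3.11 ± 0.48 in layer 2/3 IT, 2.85 ± 0.35 in layer 4/5 IT and 1.86 ± 0.30 in layer 6 IT cells. Sema7a passed in 5 of 6 subclasses, with 0.67 in the subclass that missed and 1.05 to 1.79 in those that passed. The receptor Robo2 passed in 3 of 8 subclasses, with 0.93 to 1.10, and had a negative value in 1 that did not pass, -0.71.

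Efnb3 was lower in the MC in 4 of 8 subclasses, at -2.48 ± 0.39 in layer 2/3 IT, -2.37 ± 0.38 in layer 6 IT, -2.19 ± 0.23 in layer 6 CT and -1.77 ± 0.29 in Sst cells. In layer 6 CT cells the MC libraries had 18.3 and 17.1 CPM and the PFC libraries 81.6, 78.1, 65.4, 68.6 and 104 CPM. Nrp2 was lower in 4 of 6 subclasses. In Sst cells it had 0 and 1.62 CPM in the MC and 9.62, 11.2, 16.4, 18.01 and 21.4 CPM in the PFC (-4.07 ± 0.90, adjusted p = 0.011). The MC side was 1 UMI, against 51 UMIs in the PFC, and the ratio of the pooled counts was -4.38 on the log2 scale (exact 95% interval -9.72 to -1.84, counting error only). In layer 6 CT and layer 6 IT cells the Nrp2 fold changes were -2.12 ± 0.40 and -1.97 ± 0.41, with groups apart, and in layer 4/5 IT cells -2.38 ± 0.55, where the libraries of the areas overlapped.

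**Figure D3:**
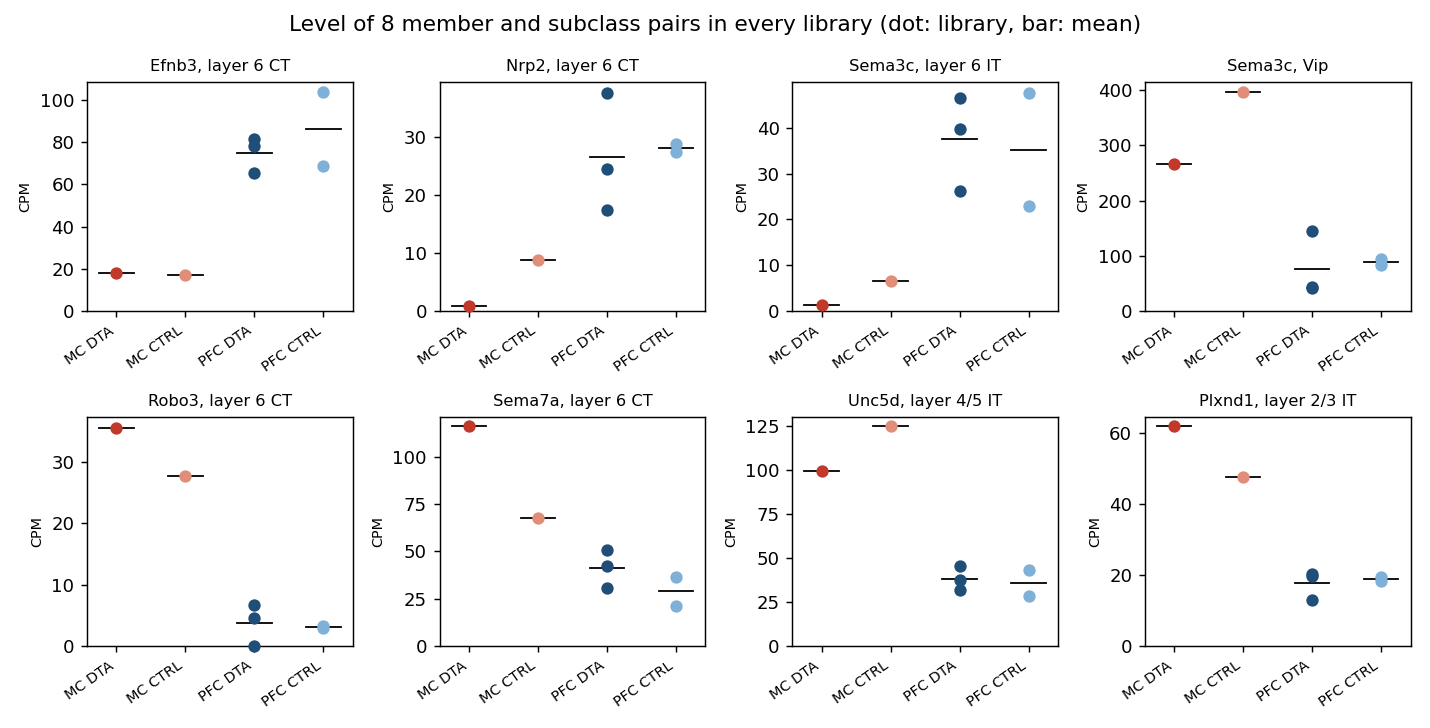
CPM of 8 pairs of a member and a neuron subclass in the libraries of MC DTA, MC CTRL, PFC DTA and PFC CTRL; points are libraries and bars are group means. The MC libraries lie outside the range of the PFC libraries in every panel, as for Efnb3 in layer 6 CT cells, at 18.3 and 17.1 CPM in the MC and 65.4 CPM or more in the PFC.

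Other members passed in few subclasses. In layer 2/3 IT cells, Plxnd1 had 62.0 and 47.6 CPM in the MC and 19.6, 20.1, 13.02, 19.5 and 18.3 CPM in the PFC (1.62 ± 0.17, adjusted p = 5.6e-05). There the MC was also higher for Unc5d (1.57 ± 0.23), Sema3a (0.93 ± 0.19), the receptor Unc5c (0.86 ± 0.21) and Plxna2 (0.62 ± 0.12), and lower for Robo1 (-0.95 ± 0.17), Sema6a (-1.31 ± 0.27), Efnb1 (-1.17 ± 0.29) and Efnb2 (-0.59 ± 0.14). In layer 6 CT cells Epha4 rose by 1.08 ± 0.16, with 152 and 183 CPM in the MC and 76.0 to 86.5 CPM in the PFC, and Efna5 (1.35 ± 0.30) and Ephb1 (0.79 ± 0.19) rose as well. Vip cells had 267 and 396 CPM of Sema3c in the MC and 42.2, 43.5, 146, 83.1 and 93.98 CPM in the PFC (1.90 ± 0.28, adjusted p = 0.00017). Epha4 in Vip cells had a fold change of 1.43 ± 0.31 on the log2 scale, and the part of excitatory background in it was not tested. Lamp5 cells had 308 and 389.6 CPM of Sema3c in the MC and 161, 78.9, 159, 208 and 148 CPM in the PFC (1.32 ± 0.22, adjusted p = 0.00083).

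**Figure D4:**
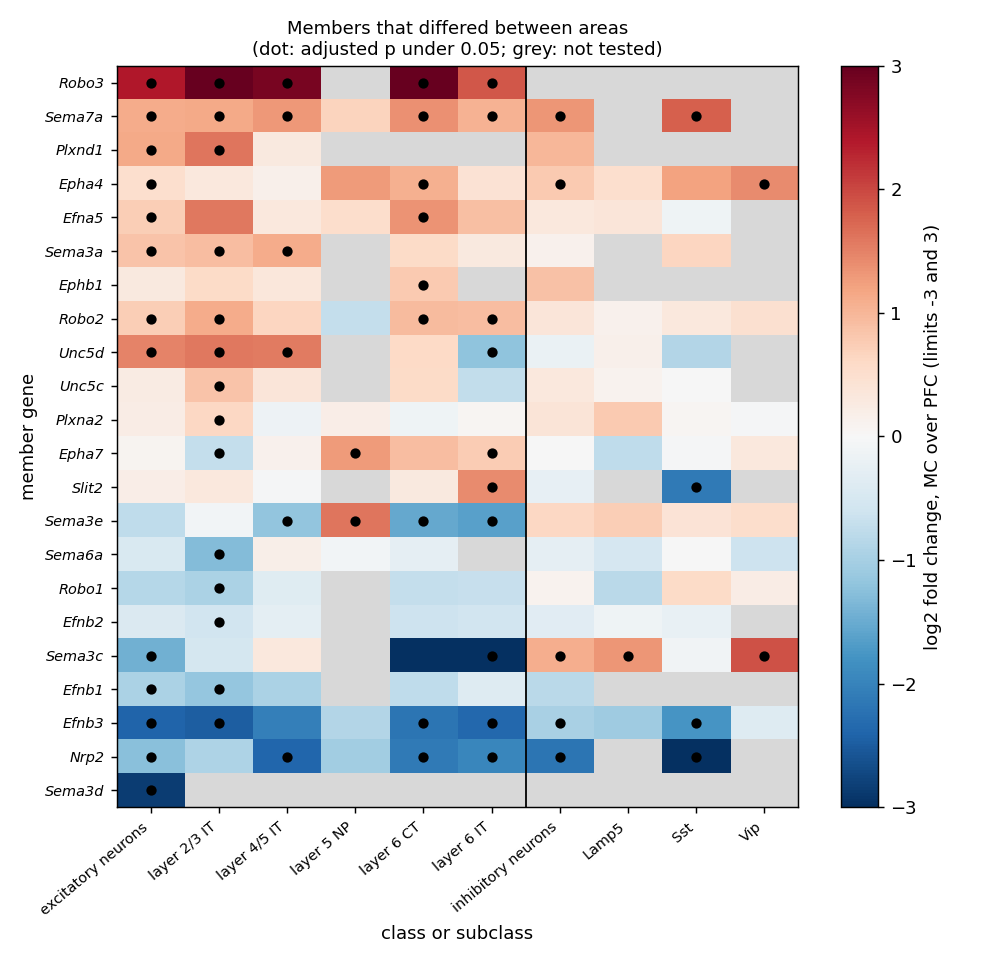
Log2 fold change, MC over PFC, of 22 members in 10 neuron classes and subclasses; colour gives the value, a dot shows an adjusted p under 0.05 over all genes of that class, and grey was not tested. Robo3 and Sema7a are on the higher side and Efnb3 and Nrp2 on the lower side wherever they are dotted.

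For 5 members the direction depended on the neuron subclass. Sema3e, a ligand of Plxnd1, had 134 and 81.5 CPM in MC layer 5 NP cells, against 55.0, 29.7, 26.1, 29.1 and 43.4 CPM in the PFC (1.61 ± 0.31, edgeR, adjusted p = 0.0085). In layer 6 IT cells it had 12.8 and 19.95 CPM in the MC, against 65.6, 47.9, 47.9, 41.9 and 62.4 CPM in the PFC (-1.64 ± 0.32, adjusted p = 0.00099). It was also lower in layer 6 CT cells, -1.53 ± 0.35, and layer 4/5 IT cells, -1.18 ± 0.31, and in the last the libraries overlapped. Unc5d was higher in MC layer 2/3 and 4/5 IT cells and lower in layer 6 IT cells, where it had 17.03 and 19.95 CPM in the MC and 26.3, 49.3, 34.2, 45.7 and 49.3 CPM in the PFC (-1.22 ± 0.31). Epha7 was lower in layer 2/3 IT cells, -0.73 ± 0.16, and higher in layer 5 NP cells, where the MC had 156 and 151 CPM and the PFC 45.8, 65.6, 84.0, 51.7 and 64.5 CPM (1.27 ± 0.27). Epha7 in layer 6 IT cells had 0.77 ± 0.20. Slit2 was higher in MC layer 6 IT cells, 1.43 ± 0.33, and lower in Sst cells, -2.11 ± 0.48, where it had 9.28 and 11.3 CPM in the MC and 38.5, 32.6, 21.3, 102 and 37.7 CPM in the PFC. Sema3c was lower in layer 6 IT cells, -3.09 ± 0.47, with -2.39 without MC DTA, where the call was lost, and -4.61 without MC CTRL. It was higher in Lamp5 and Vip cells. All 11 pairs of opposite calls had an adjusted p under 0.05 for the difference itself, in fits over both kinds of cell added after the directions had been seen. Both calls of a pair had already passed in the same libraries, so this outcome was nearly fixed in advance.

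**Figure D5:**
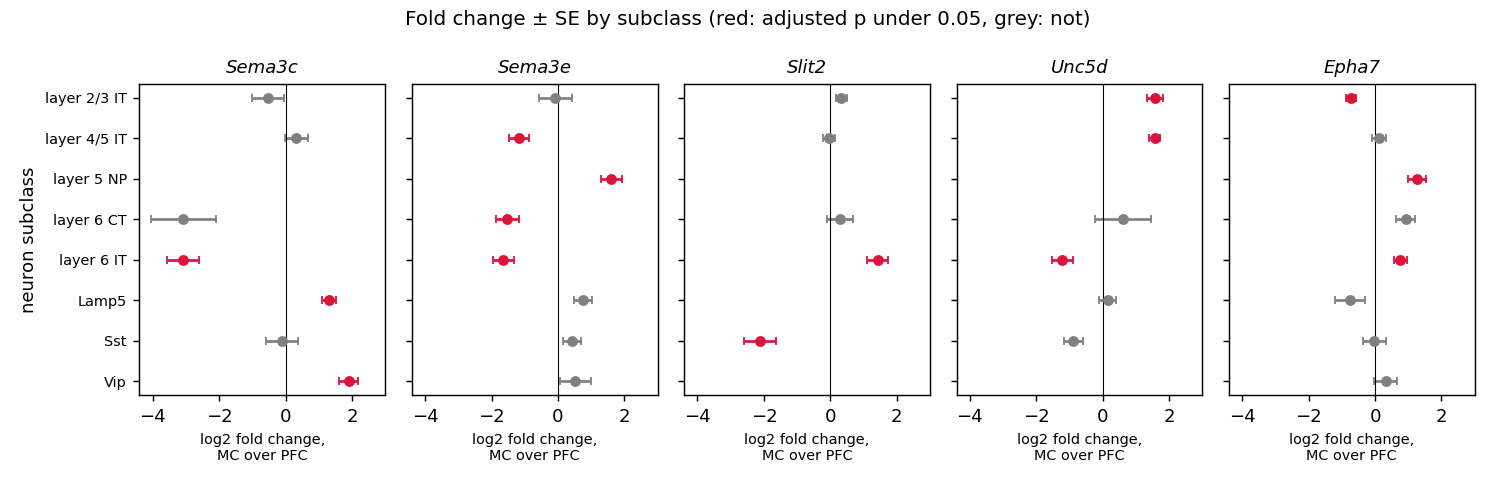
Log2 fold change, MC over PFC, with its SE, of the 5 members that passed the threshold in opposite directions, by neuron subclass; red points have an adjusted p under 0.05 and grey points do not. Sema3c reaches 1.90 in Vip cells and -3.09 in layer 6 IT cells.

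Within a subclass the areas drew on different clusters. Of layer 2/3 IT cells, clusters 8 and 19 held 68.6% and 18.7% in the MC and 0.97% and 1.18% in the PFC, while clusters 3, 10 and 12 held 41.4%, 25.2% and 23.7% of those in the PFC. Of layer 4/5 IT cells, cluster 14 held 84.0% in the MC and 2.90% in the PFC, and cluster 2 held 16.0% and 97.1%. Layer 6 CT cells were shared, with cluster 1 at 77.9% in the MC and 37.7% in the PFC, cluster 11 at 17.4% and 30.2% and cluster 13 at 4.75% and 32.1%. Layer 5 NP, layer 6 IT and Vip cells were 1 cluster each, and cluster 2 of Lamp5 cells held 76.1% and 62.9%. Of Sst cells, cluster 4 held 15.7% in the MC and 32.7% in the PFC. The MC libraries also differed there: cluster 5 held 58.8% in DTA and 23.8% in CTRL, and cluster 8 held 1.96% and 24.5%. Over the 998 layer 4/5 IT cells of cluster 2 alone, a comparison chosen after seeing these shares, 1 of 42 members passed (background 0.567%). That was Robo2 at 0.97 ± 0.19, while Unc5d missed at 0.99 ± 0.23 (edgeR, adjusted p = 0.056), Sema3a at 1.24 (adjusted p = 0.055), Sema7a at 1.34 (adjusted p = 0.057) and Robo3 at 2.11 (adjusted p = 0.14). Sema3e had 0.12 ± 0.35 there, so the lower value of layer 4/5 IT cells was not seen within this cluster. In layer 6 CT cluster 1, 5 of 42 members passed (background 0.716%): Efnb3 at -1.95, Robo3 at 2.88, Epha4 at 0.85, Epha7 at 0.88 and Sema3e at -1.63. In cluster 11, 5 of 34 passed (background 2.74%): Efnb3 at -2.37, Nrp2 at -3.39, Epha4 at 1.04, Epha5 at -1.0 and Sema7a at 1.30.

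Outside the neurons the 2 smallest p-values per class did not pass. In astrocytes Efna5 had 1.88 and 10.3 CPM in the MC and 22.6, 22.1, 13.9, 21.4 and 34.1 CPM in the PFC (-1.98 ± 0.45, edgeR, adjusted p = 0.125), and Plxnc1 had -1.59 ± 0.49. In oligodendrocytes Sema7a had 47.9 and 34 CPM in the MC and 11.7, 20.3, 22.2, 13.9 and 24.2 CPM in the PFC (1.08 ± 0.24, adjusted p = 0.582), and Efna1 had -0.45 ± 0.22. Both first-named genes kept the areas apart in these libraries. Precursors had -1.67 ± 0.69 for Plxnb3 and -0.93 ± 0.43 for Efnb3, endothelial cells -0.87 ± 0.44 for Epha2 and -0.37 ± 0.21 for Sema6a, and microglia 1.05 ± 0.60 for Epha4 and -1.01 ± 0.72 for Efnb2, with adjusted p-values of 0.998 or more in edgeR. The level of Epha4 in microglia was at most 45.6 CPM in any library. The excitatory markers stood in microglia at 3.28% to 18.02% of their own level in single libraries. The part of this background in Epha4 was not tested. Of the 114 tests of members in these 5 classes, edgeR called 0, against a background of 0.0549% of 41886, and DESeq2 called 0. At an unadjusted p under 0.05 stood 8 of the 114, against 3.68% of all genes.

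The MC side rests on 2 libraries, 1 of each genotype. Without MC DTA, 4 of the 18 calls in classes and 11 of the 48 in subclasses remained, and without MC CTRL, 5 and 15 did. The background without MC DTA was 0.169% of all tests in classes and 0.627% in subclasses, and without MC CTRL 0.172% and 0.604%; the lone MC library is then assumed to vary like the others. Among the calls with the smallest p in each class, Efnb3, Sema3c and Unc5d in excitatory neurons, Plxnd1, Robo2 and Sema7a in layer 2/3 IT, Unc5d and Robo3 in layer 4/5 IT, and Efnb3 and Robo3 in layer 6 CT cells passed whichever single library was left out. Leaving out a single PFC library also ended some calls: Slit2 in Sst cells without PFC DTA replicate 1, Sema7a in Sst cells without any one of PFC DTA replicates 1 and 2 and PFC CTRL replicate 1, Epha4 in Vip cells without PFC CTRL replicate 2, and Epha7 in layer 5 NP cells without PFC DTA replicate 1 or PFC CTRL replicate 1. The log2 fold changes of these members with few MC UMIs moved with the MC library left out: Nrp2 in inhibitory neurons had -1.54 without MC DTA and -4.35 without MC CTRL, Nrp2 in Sst cells -3.46 and -6.06, Sema3d in excitatory neurons -2.11 and -4.07, and Efnb3 in layer 6 IT cells -1.98 and -2.998. Each of these calls was lost without MC DTA, and those of Nrp2 in Sst cells and Sema3d also without MC CTRL. With all deposited cells of a library summed and no classes formed, 6 members passed, where the background was 1.21%.

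A list of 60 other genes of axon guidance (cell adhesion molecules, intracellular effectors and further receptors, chosen by their known roles) was read beside the members. Between genotypes in the PFC, 0 of its 298 tests in classes and 0 of 409 in subclasses passed in edgeR, 0 and 0 in DESeq2, and 7 (2.35%) and 9 (2.2%) stood at an unadjusted p under 0.05, against 2.66% and 3.48% of all genes. Between areas 6 of 57 passed in excitatory neurons, with 5.38% of all genes as background, 3 each way: Cntn2 (0.78), Rtn4rl1 (0.66) and Ngef (0.59) were higher in the MC, and Dpysl5 (-1.95), Dpysl3 (-1.32) and Chl1 (-0.96) were lower. Dpysl3 and Dpysl5 belong to a family of cytoplasmic effectors of semaphorin signals, and Chl1 is an adhesion molecule. Over subclasses 21 of 374 passed (5.62%), 11 higher and 10 lower, against 15.4% of the members and 3.55% of all genes. Layer 2/3 IT cells, where 10.5% of all genes passed, held 10 of these, among them Dpysl5 at -3.11 ± 0.47, Cntn2 at 1.56 ± 0.20 and the repellent ligand Rgma at 1.90 ± 0.45.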

How the data were processed

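The authors deposited a table of UMI counts for each library, genes by cells, made with 10x Genomics chemistry per the labels' protocols. The submitters' processing notes name Cell Ranger 3.0.2, Seurat and mm10; use of strand was not given in the sources used here. Every value was a whole number, and requiring 200 genes and no more than 20% mitochondrial UMIs removed 0 cells. Scrublet in scanpy 1.11.5 called doublets in each library by its automatic threshold, which marked under 0.5% in PFC DTA replicate 3; there the highest scores were removed at a rate of 0.8% per 1000 cells.

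Cells of the 7 libraries were clustered jointly, with no batch correction and without the members, on 2000 variable genes and 30 principal components (leidenalg 0.10.2, 20 neighbours, resolution 1.0). A name needed at least 3 markers at 20 CPM and 2-fold over the median of the clusters, and clusters with a second class of markers stayed unnamed, at a level set after seeing the clusters. UMIs were summed per library and class (30 cells or more in every library) or neuron subclass (20 or more). Sums were filtered with filterByExpr (10 counts), TMM-scaled and fitted with edgeR 4.0.16 (R 4.3.3), using the robust quasi-likelihood test and Benjamini-Hochberg adjustment over all genes of a class, with 0.05 as the threshold. An SE is the fold change over the square root of F. Genotypes were fitted on the 5 PFC libraries and areas on all 7 plus a genotype term. DESeq2 1.42.0 was the second tool. The fits were tested on simulated data. Alternatives are named in the closing section. Members, gene lists and tests were chosen with earlier results of these data known.

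Named with values are, per class and subclass, the 4 members with the highest ratio to the other classes among those at 20 CPM or more. For genotype these are members past the threshold and, in 4 classes, the 2 smallest p each way. For area they are members past the threshold, up to 10 by p per class and 4 per subclass, otherwise the 2 smallest p. In the MC they are the 2 largest ratios each way at 50 counts or more in each library. The highest member of each family is named too. Members outside this rule were named after their values were seen. Promoters are from RefSeq on GRCm38.p6.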

Additional observations from a re-analysis of the deposited data

Results flagged for a closer look

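Members that passed the threshold between MC and PFC in opposite directions in different neurons were looked at again, with a test of the difference of the log2 fold changes. The pairs were chosen for their opposite calls, so that they passed this test was nearly fixed in advance. The test was a fit of both kinds of cell with the library as a block (edgeR, 29 pairs of classes fitted, adjusted p over all genes of a pair), added after the opposite directions had been seen. Each value below is the log2 fold change (MC over PFC) in the first kind of cell minus that in the second.

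For Sema3c the difference was -2.59 ± 0.19 (SE) between excitatory and inhibitory neurons, 4.39 ± 0.46 between Lamp5 and layer 6 IT cells and -5.08 ± 0.50 between layer 6 IT and Vip cells. Layer 6 IT and Vip cells were 1 cluster each in both areas. Sema3c in layer 6 IT cells rested on 7 UMIs in the MC, and its log2 fold change ran between -4.61 and -2.39 over the left-out libraries. For Sema3e it was -2.73 ± 0.42 between layer 4/5 IT and layer 5 NP cells, 2.99 ± 0.38 between layer 5 NP and layer 6 CT cells and 3.25 ± 0.42 between layer 5 NP and layer 6 IT cells. The layer 4/5 IT value rests on different clusters in the areas, and within the shared cluster 2 it was 0.12. For Unc5d it was 2.85 ± 0.31 between layer 2/3 IT and layer 6 IT cells and 2.85 ± 0.31 between layer 4/5 IT and layer 6 IT cells, and here too the upper layers drew on different clusters in the areas. For Epha7 it was -2.03 ± 0.29 between layer 2/3 IT and layer 5 NP cells and -1.50 ± 0.22 between layer 2/3 IT and layer 6 IT cells, again with different clusters behind layer 2/3 IT cells in the areas. For Slit2 it was 3.56 ± 0.52 between layer 6 IT and Sst cells. Slit2 in Sst cells rested on 13 UMIs in the MC, against 134 in the PFC. Its log2 fold change there ran between -2.505 and -1.615 over the left-out libraries, and the clusters of Sst cells differed between libraries. The largest adjusted p of the 11 differences was 2.5e-05.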

How the results depend on the processing

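The alternatives run were DESeq2, RLE size factors, low counts left unfiltered, a non-robust test, a covariate for the UMIs per cell, no genotype term, doublets kept, members kept among the clustering genes, resolutions of 0.5 and 2.0, all deposited cells summed, a replicate block, and leaving out each library. Fits of single shared clusters and tests of opposite directions were chosen after seeing the data. The 32 members highest in a neuron class stayed within 1.5 times under every alternative run for that count.

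Between genotypes in the PFC, members called in classes numbered 0 to 1 over the left-out libraries, with 1 without PFC CTRL replicate 2. In subclasses they numbered 0 to 1, with 1 without PFC DTA replicate 2, and 1 with low counts left unfiltered, Robo3 in layer 2/3 IT cells. Sema5a in excitatory neurons reversed: it ranged from -1.02 to 0.13 over the left-out libraries, 0.13 being the value without PFC CTRL replicate 1. Between areas the 18 calls in classes became 6 when all deposited cells were summed and 4 to 21 over the left-out libraries, and the 48 in subclasses became 11 to 52. The lowest counts were those without MC DTA, where the background was 0.169% in classes and 0.627% in subclasses, against 1.52% and 3.55% with all libraries. Other settings kept both counts within 1.5 times where run, and DESeq2 gave 20 and 37. Where no share of all genes is given for a setting, as for DESeq2 and unfiltered low counts, its count cannot be set beside all genes. The resolutions were run for classes, not subclasses, and with doublets kept 5 of the 8 subclasses could be fitted. The cause of these shifts was not tested.

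The replicate numbers share no stated origin, so they were not taken to pair the libraries. In excitatory neurons the deviations from the group means correlated at 0.12 for number 1 and 0.07 for number 2, across 13564 genes. With the replicate number as a block, 0 members were called in classes and 0 in subclasses.

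Depth limits small subclasses: those under 20 cells in a library were not tested between areas.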

Other observations

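Classes with few cells were left out of the tests and are given as pooled levels over the 7 libraries, with exact Poisson 95% intervals that cover counting error only. Pericytes, the mural cells of capillaries, had 129.7 CPM of Ntn1 (107 to 155, from 118 UMIs) and 115 CPM of Sema6d (94.4 to 140). Among the main classes Ntn1 was highest in oligodendrocyte precursors, at a mean of 59.8 CPM. Vascular smooth muscle cells had 90.0 CPM of Ntn4 (67.2 to 118), a netrin of basement membranes, whose highest mean in any main class was 7.30 CPM in inhibitory neurons. They also had 58.9 CPM of Sema3g (40.8 to 82.3).

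Perivascular macrophages had 185.5 CPM of Nrp1 (146 to 233) and 70.2 CPM of Nrp2 (46.7 to 102), from 28 UMIs. Newly formed oligodendrocytes had 254 CPM of Sema5a (227 to 283) and 198 CPM of Plxnb3, its plexin (174 to 224), against means of 102 CPM of Sema5a in precursors and 65.0 CPM of Plxnb3 in oligodendrocytes. No test of these differences was made.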
